A study of Mus musculus with 6 samples.

Results

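Ubr2 and 4 relatives, Ubr1, Ubr3, Ubr4 and Ubr7, encode ubiquitin ligases that share a UBR box, and the peaks that ATF4 ChIP-seq placed at these genes are described here. The members were chosen by the scores and ranks of the Ubr2 peak in these same lists, and the relatives were added by gene family. Their levels are therefore given as a description, without a test. Of 17462 peaks in 4 annotated lists, 9 were named for one of the 5 genes at any distance. They comprised 7 peaks of Ubr2, 1 of Ubr3 and 1 of Ubr4, whereas Ubr1 and Ubr7 had none in any list.

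The cells were mouse embryonic fibroblasts (MEFs) of strain 129S6/SvEvTac, either wild-type (WT) or lacking GCN2 (GCN2-/-, here GCN2 KO). GCN2 is the kinase that senses uncharged tRNA and raises ATF4 through eIF2α phosphorylation. Each genotype was kept for 24 h in complete DMEM (+Leu) or in DMEM without leucine (-Leu), which gives 4 groups, all precipitated with the ATF4 antibody sc-200. Chromatin of 2 independent experiments was pooled into 1 library per group, so no difference between groups has a replicate check. The control of both -Leu groups in peak calling was the input of the same genotype grown with leucine, and the 2 inputs were not analysed here. The lists held 4850 peaks for fed WT cells (WT +Leu), 6374 for starved WT cells (WT -Leu), 3566 for fed KO cells (GCN2 KO +Leu) and 2672 for starved KO cells (GCN2 KO -Leu), the names used from here on. Each peak carries the authors' score, a whole number from 13 up with a median of 29 or 30, whose scale is not stated. The lowest score was 13 in every list, the whole-number part of 10 times the negative log10 of the false discovery rate limit of 0.05, as it would be if the score were a transformed q-value. A ratio of scores is therefore given as such and is not a fold in binding. The sequencing depth is unknown, so a score can be ranked within its list but its size cannot be compared with precision between lists.

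N-recognins are the ligases that read the N-degron, the N-terminal residue of a protein that marks it for the proteasome. UBR1 and UBR2 are close paralogs that bind basic and bulky hydrophobic N-terminal residues and work with the E2 enzymes UBE2A and UBE2B. Both have also been described as leucine-binding proteins that act on leucine-dependent mTOR signaling, and UBR2 is needed for male meiosis. UBR4 is a very large N-recognin without a RING domain, UBR7 carries a PHD finger, and UBR3 and UBR7 carry the UBR box without being established N-recognins. ATF4 binds DNA as a dimer with a C/EBP partner, most often at TGATGCAA, the element of amino acid response genes.

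The strong Ubr2 peak lay in an intron in all 4 lists. Ubr2 (Entrez Gene 224826) occupies chr17:46928291-47010886 on the minus strand (mm10), and the WT window spanned chr17:46994994-46995294. One TGATGCAA stood in this window, from 46995114 to 46995121 on the plus strand, which is the strand opposite to Ubr2 transcription. Because the results turn on this element, the reference sequence of the first 300 bases of the WT window is shown on the plus strand with the motif in capitals.
Ubr2 intron peak: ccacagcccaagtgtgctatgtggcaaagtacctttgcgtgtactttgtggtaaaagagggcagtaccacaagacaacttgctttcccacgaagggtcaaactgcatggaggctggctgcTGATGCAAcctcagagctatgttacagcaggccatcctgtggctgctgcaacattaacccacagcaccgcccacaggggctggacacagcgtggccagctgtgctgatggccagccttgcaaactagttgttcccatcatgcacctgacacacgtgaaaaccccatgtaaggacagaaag

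The gene body of each member was searched for the same 8 bases on either strand. Ubr1, Ubr2, Ubr3 and Ubr4 each held exactly 1 copy, and Ubr7, the shortest of the genes (19.7 kb against 82.6 to 127 kb for the others), held none. All 4 copies were intronic. They are shown 5′ to 3′ on the strand that carries the motif, with TGATGCAA in capitals, since the same element was in a peak in 1 of these genes and in none of the others.
Ubr1, chr2:120864753-120864782, plus strand: gctgtttttctTGATGCAAtagaaaaggat
Ubr2, chr17:46995103-46995132, plus strand: aggctggctgcTGATGCAAcctcagagcta
Ubr3, chr2:69982196-69982225, minus strand: atcagaaagcaTGATGCAAgtgtcagatgt
Ubr4, chr4:139404081-139404110, minus strand: ggagacccgccTGATGCAAtggcaccagaa

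The copy in Ubr2 was covered by a peak in each of the 4 lists. The other copies were covered in none, and the nearest peak center of any list was 29.8 kb from the copy in Ubr1, 84.4 kb from that in Ubr3 and 23.7 kb from that in Ubr4. The Ubr1 copy lay in intron 45, close to the 3′ end of the gene, the Ubr3 copy in intron 25 and the Ubr4 copy in intron 17. Most copies of this short element were not in a peak in these data. Of 87106 copies on chromosomes 1 to 19, X and Y, 0.228% lay inside a fed WT peak, 0.690% inside a starved WT peak, 0.0735% inside a fed KO peak and 0.0494% inside a starved KO peak. The uncovered copies in Ubr1, Ubr3 and Ubr4 were thus the common case. The Ubr2 copy was the rare one, in a gene that had been chosen for its peak. Outside the 8 bases, 5 of the 22 flanking bases shown were equal between Ubr2 and Ubr1, 1 between Ubr2 and Ubr3 and 6 between Ubr2 and Ubr4.

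The score of the Ubr2 intron peak was 1209 in fed WT, 2249 in starved WT, 387 in fed KO and 222 in starved KO. It was thus highest in leucine-starved WT cells and lower in both GCN2 KO lists than in either WT list. Within its own list the peak ranked 3 of 4850 in fed WT and 4 of 6374 in starved WT. With GCN2 knocked out it ranked 2 of 3566 with leucine and 3 of 2672 without it. Its place near the top was therefore alike in all 4 lists although the scores differed. As a share of the highest score in the same list it reached 80.7% in fed WT, 85.6% in starved WT, 99.0% in fed KO and 62.9% in starved KO.

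**Figure D1:**
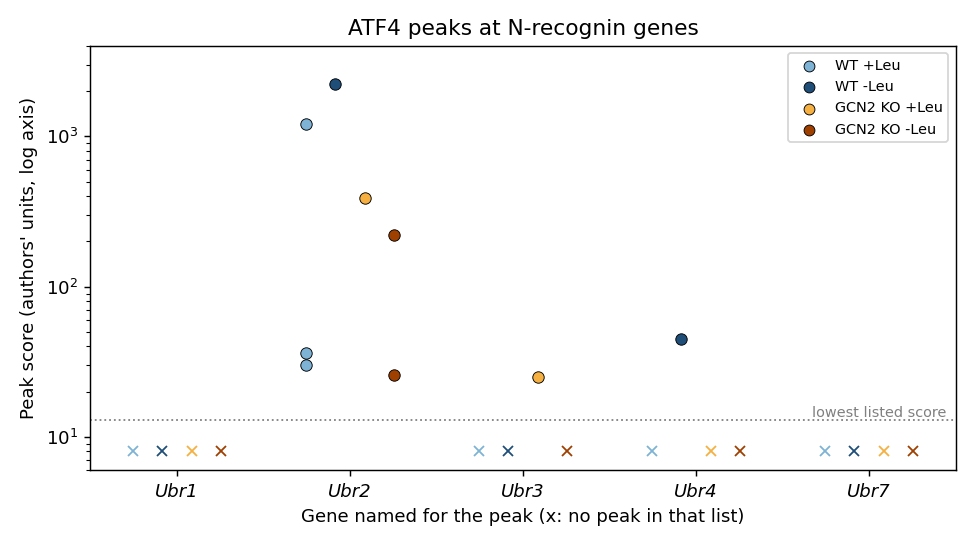
Peak score of every peak named for Ubr1, Ubr2, Ubr3, Ubr4 or Ubr7 in the 4 lists, on a log axis, with a cross where a list has no peak for the gene. The Ubr2 intron peak stands between 222 and 2249, and no other peak of these genes exceeds 45.

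Peaks annotated as intron made up 42.6% to 45.4% of the lists. Among them the Ubr2 peak had the highest score in fed WT, fed KO and starved KO, and the next highest in starved WT, where an intron peak of Ciapin1 scored 2628. The strongest other intron peak was named for Atf5 in fed WT (808) and fed KO (228) and for Mthfd2 in starved KO (208). The Ubr2 score was 1.50, 1.70 and 1.07 times these values, so in starved KO the lead over Mthfd2 was small.

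The position of the peak was nearly fixed. Its center was at 46995144 in both WT lists, at 46995125 in fed KO and at 46995129 in starved KO, a spread of 19 bp. The middle of the motif was 26 bp from the center in both WT lists, 7 bp in fed KO and 11 bp in starved KO. The site is 15.4 kb downstream of the TSS given in the lists, in intron 2 of 46, which is 7516 bp long. From the WT center, exon 2 was 5442 bp upstream in the direction of transcription and exon 3 was 2075 bp downstream. The study's gene lists used peaks within 5 kb of a TSS, a limit that this site exceeds. No base of the WT window was masked as a repeat in the reference, and the list's annotation named no repeat there. Its GC content was 53.5%.

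**Figure D2:**
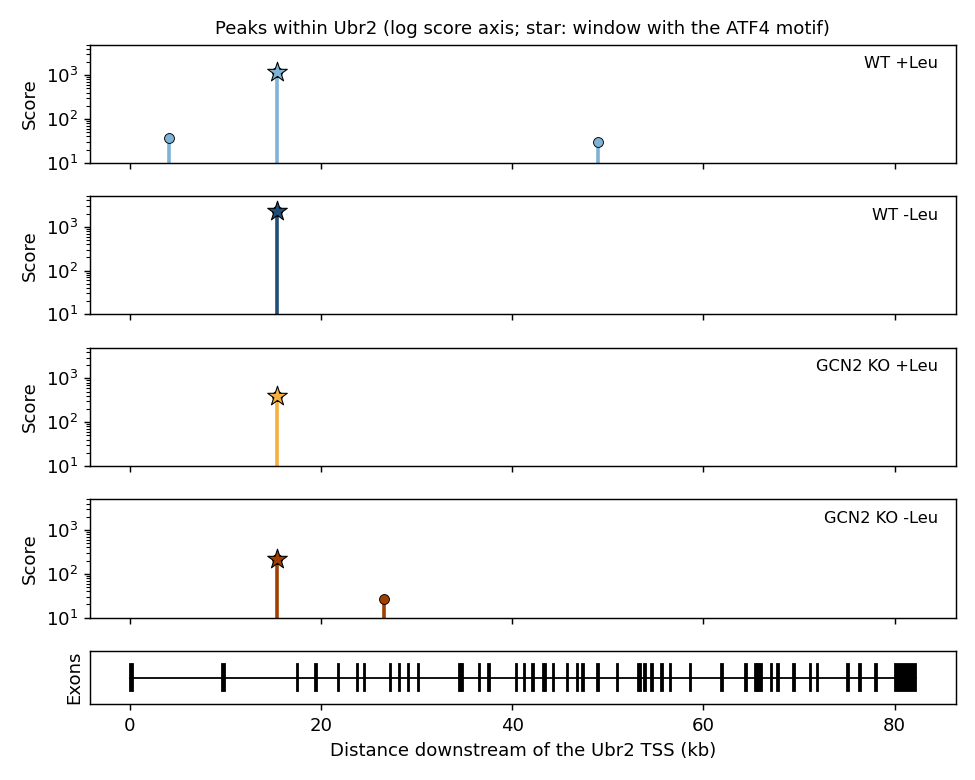
Peaks named for Ubr2 in each list by distance downstream of the TSS (kb), with the score on a log axis and the exons of the longest RefSeq mRNA below; a star marks a window that holds TGATGCAA. The peak in intron 2 recurs at one position in all 4 lists, and each of the 3 weak peaks occurs in 1 list.

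The other 3 Ubr2 peaks were weak, and none had a partner 300 bp or less away in another list. In fed WT, a peak at chr17:47006287-47006587 in intron 1, 4.10 kb from the TSS, scored 36. It overlapped a LINE element (L1MB5) in the list's annotation, although no base of its window was masked in the reference. Another one in this list, at chr17:46961433-46961733 in exon 25, scored 30. In starved KO a peak at chr17:46983745-46984045 in intron 7 scored 26. These ranked 1331 and 1835 of 4850 and 1636 of 2672, far behind the intron 2 peak, and none of the 3 windows held TGATGCAA or TGATGNAA. Leaving them aside, the intron 2 site is the one place in Ubr2 with a peak in more than 1 list.

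Ubr4 and Ubr3 had 1 peak each. For Ubr4 (Entrez Gene 69116) a promoter peak at chr4:139380227-139380527, 282 bp upstream of the TSS, was listed in starved WT with a score of 45, rank 1572 of 6374. The Ubr3 peak (Entrez Gene 68795), at chr2:69897660-69897960 in exon 1 and 564 bp downstream of the TSS, was listed in fed KO with a score of 25, rank 2309 of 3566. Both windows were GC-rich, at 59.8% and 69.8%, and neither held TGATGCAA or TGATGNAA. No member promoter, taken as 250 bases before to 50 after the start in RefSeq (GRCm38.p6), held TGATGCAA on either strand, a sequence found in 0.895% of the 32851 promoters of the same length. A further 3 peaks inside the Ubr4 gene body are named in the lists for Iffo2, whose TSS is nearer. They scored 35 in fed WT (intron 103 of 105), 22 in fed KO (intron 103) and 30 in starved KO (intron 93), without the motif.

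No peak lay in the gene body of Ubr1 or Ubr7 in any list. From the 5′ end of Ubr1 (Entrez Gene 22222, chr2:120860272-120970760, minus strand) the nearest peak was 136 kb away in fed WT, 770 kb in starved WT, 211 kb in fed KO and 280 kb in starved KO. For Ubr7 (Entrez Gene 66622, chr12:102757975-102777701, plus strand) these distances were 445, 114, 44.1 and 59.7 kb. The member farthest from a peak differed by list. It was Ubr7 in fed WT, Ubr1 in starved WT and fed KO, and Ubr3 in starved KO (652 kb).

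**Figure D3:**
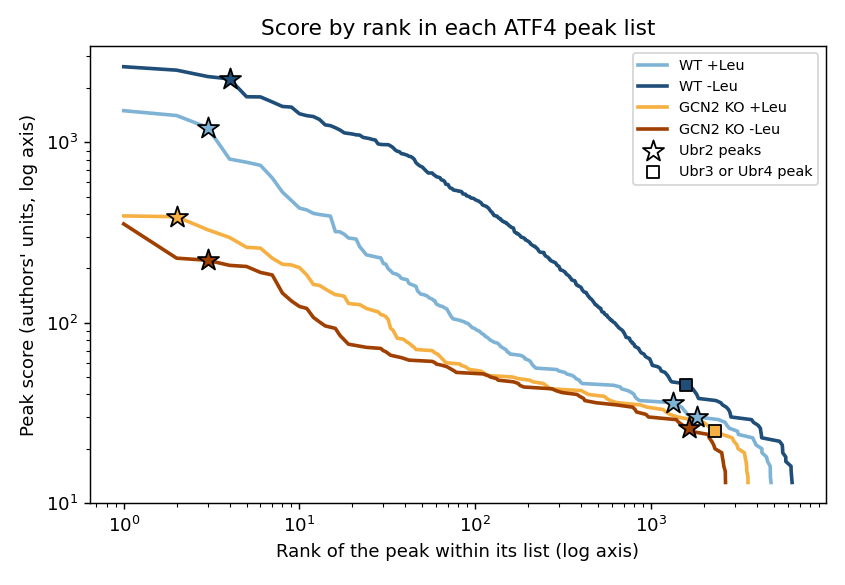
Score against rank within each of the 4 lists, both on log axes, with the peaks of Ubr2 (stars) and of Ubr3 and Ubr4 (squares) marked. One Ubr2 star per list lies at rank 2 to 4, and the remaining marks lie at rank 1331 or beyond.

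Counted by gene, 1 of the 5 members had a peak in fed WT, 2 in starved WT, 2 in fed KO and 1 in starved KO. Over the 21900 protein-coding genes of the reference the corresponding shares were 14.6%, 18.3%, 11.1% and 8.56%. With 5 genes, 1 of which was chosen for its peak, nothing can be read from this difference. A peak in every list was rarer. It was found for 0.959% of the protein-coding genes (210 genes), Ubr2 among them, and 0.639% of the fed WT peaks (31) had a peak 300 bp or less away in each of the other 3 lists.

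At these 31 sites the Ubr2 peak could be set beside others measured in the same libraries. Of the 31, 4 ranked within the first 10 peaks of every list, namely those at Ubr2, Chac1, Klhdc4 and Atf5. The lowest rank of the Ubr2 site was 4, and that of the others was 7 for Chac1 and 9 for both Klhdc4 and Atf5, in a list of sites in which Ubr2 had been chosen for its ranks. The score of the Ubr2 site without leucine was 1.86 times that with leucine in WT. Over the 31 sites the median ratio was 2.47 (middle 50% from 1.76 to 3.30), and 29 sites had a ratio above 1. In GCN2 KO the Ubr2 ratio was 0.574, against a median of 0.870 (0.447 to 1.06). Both values at Ubr2 lay inside the middle 50% of the sites. The direction at Ubr2 was therefore the common one among these 31 sites, and its size was not out of the ordinary among them. A site without a listed peak in any 1 of the lists is not among the 31, so the ratios do not describe such sites. Relative to WT, the Ubr2 score in GCN2 KO was 0.320 times as high with leucine (median of the sites 0.566) and 0.0987 times as high without it (median 0.123). These ratios compare scores only, and the part of unequal depth in them was not tested.

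**Figure D4:**
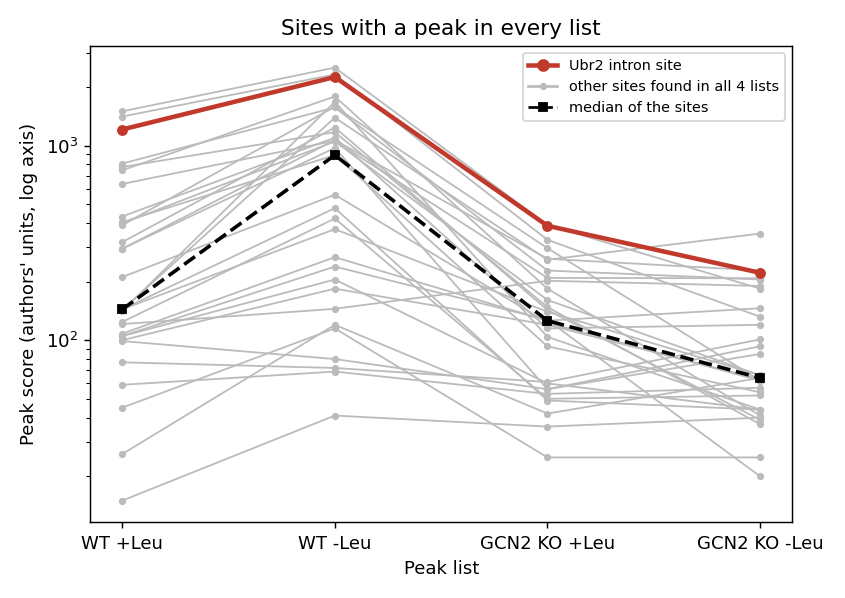
Peak score (log axis) in each list at the 31 sites with a peak in all 4 lists, with the Ubr2 intron site in red, the other sites in grey and the median of all 31 sites as a dashed line. The Ubr2 site takes place 2 or 3 of the 31 in each list.

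The 5 genes whose strongest peaks were most like those of Ubr2 over the 4 lists were Chac1, Klhdc4, Atf5, Mthfd2 and Creb3l1, in this order, out of 8862 genes compared. Likeness was the Euclidean distance between the log2(1 + score) values, which was 0.441 for Chac1, 0.814 for Klhdc4, 1.09 for Atf5, 1.68 for Mthfd2 and 2.37 for Creb3l1. Chac1 encodes an enzyme that degrades glutathione, and its peak is in the promoter, with scores of 1499, 2515, 391 and 184 in the order of the lists above. The Klhdc4 peak is intergenic, at -21665 bp from the TSS in fed WT, and scored 1409, 2319, 328 and 132. Atf5, a bZIP factor, had its peak upstream of its TSS, at -2445 bp in fed WT, with scores of 808, 1569, 228 and 205. The intron annotated for this window is therefore that of a transcript with another start, which need not be one of Atf5. Mthfd2 encodes a mitochondrial folate enzyme, and its intronic peak scored 635, 1058, 209 and 208. Creb3l1, another bZIP factor, had an intergenic peak that scored 295, 1066, 262 and 228. In starved KO, Ubr2 (222) stood above Chac1 and Klhdc4, whereas in both WT lists it stood below them.

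For Chac1 and Klhdc4, the nearest of these, the element in the fed WT window is shown in the same way, because their peaks resemble the Ubr2 peak in score. The Klhdc4 window held 2 copies, of which 1 is shown.
Chac1, chr2:119351038-119351067, minus strand: cctggcaggagTGATGCAAcggcagggaag
Klhdc4, chr8:121851213-121851242, minus strand: ccccatcagcaTGATGCAAtatttgcttct
Of the 22 flanking bases, 5 were equal to those at Ubr2 for Chac1, 3 for Klhdc4 and 6 for Atf5, whose sequence is not shown. The uncovered copies in Ubr1, Ubr3 and Ubr4 had 5, 1 and 6 equal bases, so this count did not separate covered from uncovered copies. TGATGCAA was present in 3.91% (95% Wilson interval 3.40 to 4.49, counting error only) of all fed WT windows, 9.05% (8.37 to 9.78) of starved WT, 1.72% (1.34 to 2.20) of fed KO and 1.50% (1.11 to 2.04) of starved KO windows on the same chromosomes. It was thus uncommon among all peaks, and 17 of the 28 sites found in all 4 lists on these chromosomes held it. Among the 10 strongest peaks of a list, Ubr2 included, it was common. On these chromosomes it was in 8 of 10 in fed WT, 7 of 10 in starved WT, 5 of 10 in fed KO and 5 of 9 in starved KO.

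The neighbors of Ubr2 carried no comparable peak. Prph2, a photoreceptor gene, ends 3.36 kb beyond the 3′ end of Ubr2. The lists name 1 peak for it in starved WT (chr17:46927059-46927359, score 23) and 1 in starved KO (chr17:46927872-46928172, score 24). Both lay between Prph2 and Ubr2, nearer to the 3′ end of Ubr2. On the 5′ side the nearest annotated gene is the pseudogene Gm16494, without a peak, and the nearest protein-coding gene is Trerf1, 130 kb away, with 1 peak in starved WT (38) and 1 in fed KO (34). Within 500 kb of the Ubr2 site the lists held 7, 5, 3 and 7 other peaks, the weak ones of Ubr2 included, the strongest of which scored 66, 38, 46 and 34. The site was therefore a single strong peak in a region of weak ones.

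Other genes of the N-degron pathways were taken from a list of 21 genes. Of these, 3 had a peak at any distance in fed WT, 6 in starved WT, 3 in fed KO and 1 in starved KO. These are 14.3%, 28.6%, 14.3% and 4.76% of the list, beside 14.6%, 18.3%, 11.1% and 8.56% of all protein-coding genes. The widest gap at any distance, in starved WT, rests on 6 genes of a list chosen with earlier results of these data known. It was not tested, and nothing can be read from it. Within 5 kb of the TSS, 2 of the 21 genes had a peak in fed WT, 5 of 21 in starved WT and 0 in each KO list. The shares of all protein-coding genes were 3.03%, 4.40%, 2.26% and 1.61%. The starved WT count lay farther above its share here than at any distance. It comes from the same list, chosen with earlier results known, and was not tested, so nothing can be read from it either. At the KO shares less than 1 gene of 21 would have such a peak, so nothing can be read from the 0 counts. Ube2a and Ube2b, the E2 partners of UBR2, had no peak in any list, nor did the amidases Ntan1 and Ntaq1.

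Among ligases, Fbxo11, an F-box protein with a UBR box, was the gene of the list with a common site in both WT lists. Its peak lay upstream of the TSS, at chr17:88066304-88066604 with a score of 49 in fed WT and at chr17:88066281-88066581 with a score of 92 in starved WT, the centers 23 bp apart. Both windows held 1 TGATGCAA, from 88066432 to 88066439 on the plus strand, shown here as another UBR box gene with the motif in a peak.
Fbxo11, chr17:88066421-88066450, plus strand: gcgggggctgcTGATGCAAttgggagaagt
Zyg11b, a receptor for N-terminal glycine, had a promoter peak in starved WT that scored 172. March6 (Marchf6), a ligase for acetylated N termini, had a promoter peak in starved WT (39) and an intron peak in fed KO (24). Rmnd5a, a subunit of the CTLH ligase, had peaks scoring 31 and 24 in fed WT, 94 in starved WT and 30 in fed KO, and the starved WT window, in intron 2, held TGATGCAA.

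Sqstm1 had the highest score of the 21 genes. It encodes p62, an autophagy receptor that also binds N-terminal arginine. Its starved WT peak at -1305 bp from the TSS, chr11:50211975-50212275, scored 545 (rank 75 of 6374) and held neither TGATGCAA nor TGATGNAA. A second starved WT peak, 10.1 kb downstream of the TSS, scored 79 and held TGATGCAA, and a starved KO peak 14.5 kb downstream scored 20. Ate1, the arginyltransferase of the pathway, had a starved WT promoter peak with a score of 30. Ado, which oxidizes N-terminal cysteine, had a fed WT peak with a score of 31, 22.3 kb from the TSS. Kcmf1, a partner of UBR4, had a fed KO peak with a score of 21. No peak of these 21 genes reached the score of the Ubr2 intron peak in the same list, and only Sqstm1 and Zyg11b, both in starved WT, exceeded 100.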

How the data were processed

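ATF4 ChIP-seq was available for 4 libraries. Reads had been trimmed (fastx) and mapped to mm10 (BWA 0.7.12) by the authors, who called peaks with MACS2 2.1.0 at a false discovery rate of 0.05 and annotated the summit ±150 bp with HOMER 4.7. Each deposited list holds a peak score without any stated scaling across libraries, a signed TSS distance (bp) and the GC content, deposited as a fraction of the bases and printed here as a percent. Ranks, distances between centers (common at 300 bp or less), gene shares and motif matches were computed with Python 3.11.15, numpy 2.4.6, pandas 2.3.3, scipy 1.17.1 and pysam 0.24.0, and plotted with matplotlib 3.10.9. Steps were tested on simulated data. Sequences came from GRCm38 and RefSeq promoters (GRCm38.p6), after the listed GC content had been checked to equal that of the reference in every peak on an assembled chromosome. A peak belongs to a member if the list names that gene. Named genes are the members, the genes of the N-degron list with a peak, those beside Ubr2, and the 5 most like Ubr2. Ciapin1 and Iffo2, and the genes of the list named for having no peak, were named after their values were seen. The members and lists were chosen with earlier results of these data known. With 1 library per group no test was made. Some sequences and genes are not reported here.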

Additional observations from a re-analysis of the deposited data

Results flagged for a closer look

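The Ubr2 intron peak changed in opposite directions in the genotypes. Its score without leucine was 1.86 times that with leucine in WT and 0.574 times in GCN2 KO. It was set apart because the single library of each group moved the opposite way, and the difference between the genotypes was not tested. Of the 31 sites with a peak in all 4 lists, 29 had a ratio above 1 in WT and 10 in GCN2 KO. The ratios compare scores, not binding. Depth is not in the lists and its part in these ratios was not tested.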

How the results depend on the processing

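The Ubr2 intron peak was present in all 4 lists whether common centers were 100, 300 or 1000 bp apart. Its percentile stayed above 99 under each alternative, and among intron peaks alone it was 100 in fed WT, fed KO and starved KO. Counts of member peaks moved with the assignment. Within 5 kb of a TSS, 1, 1, 1 and 0 peaks were left in fed WT, starved WT, fed KO and starved KO, without the Ubr2 intron 2, intron 7 and exon 25 peaks. With a center inside the gene body as the criterion, the counts were 4, 1, 3 and 3 in place of 3, 2, 2 and 2. A score of 30 or more left 1 in fed KO and 1 in starved KO. Against the strongest peak of each gene, the percentile of the Ubr4 peak fell from 75.4 to 69.9 and that of the Ubr3 peak from 35.3 to 31.5. The share of protein-coding genes with a peak was 3.03%, 4.40%, 2.26% and 1.61% within 5 kb, and 17.8%, 21.4%, 13.3% and 10.5% among genes as long as the members. No paired analysis was possible because each group had 1 library. Depth and input coverage are unknown, so the precision of a score cannot be given.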

Other observations

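The base after the motif varied among the copies printed above, a feature chosen after the sequences had been read, and it did not separate the covered from the uncovered ones. Ubr2 and Chac1 have TGATGCAA followed by C, Ubr1, Ubr4, Klhdc4 and Fbxo11 by T, and Ubr3 by G. Over all copies on chromosomes 1 to 19, X and Y, 1.58% of the 10871 followed by C lay in a starved WT peak (95% Wilson interval 1.36 to 1.83, counting error only). The share was 1.06% (0.938 to 1.21) of the 22255 copies followed by T, 0.746% (0.630 to 0.884) of the 17684 followed by G and 0.165% (0.128 to 0.213) of the 36296 followed by A. In fed WT the shares in the same order were 0.580%, 0.328%, 0.260% and 0.0468%. Copies in repeats share their sequence and are not independent, and mappability and base composition were not tested.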
